A study of Mus musculus with 9 samples.

Results

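The AP-1 subunit genes are the 9 mouse genes Fos, Fosb, Fosl1, Fosl2, Jun, Junb, Jund, Atf3 and Batf, chosen by name out of 22367 protein-coding genes annotated on chromosomes 1 to 19, X and Y. Their chromatin accessibility was read from ATAC-Seq, in which a transposase cuts and tags open DNA, in 9 libraries with 1 library per condition. Mouse embryonic fibroblasts (MEFs) with a GFP cassette at the Oct4 gene were infected with retroviruses for Oct4, Sox2, Klf4 and c-Myc (OSKM). The time course held MEFs at day 0 (D0), unsorted cells at day 3 (D3), Thy-1-negative cells at day 6 and day 9 (D6T- and D9T-), SSEA-1-positive cells at day 12 and day 16 (D12S+ and D16S+) and fully reprogrammed cells (iPSCs). A pair of day 6 libraries came from OSKM cells given siRNA against the histone variant H3.3 (D6 siH3.3) or a non-targeting siRNA (D6 siNT). In the paper this siRNA was given around the start of reprogramming, and the H3.3 knockdown is called transient and limited to the early phase. The labels call both siRNA libraries Thy-1-negative, and the depletion of H3.3 itself was not measured in these files. Thy-1 is a surface protein that fibroblasts lose on the way to pluripotency and SSEA-1 an antigen that they gain, and from D3 to D6T- and from D9T- to D12S+ the day and the sorting gate cannot be told apart. In sorted or mixed cells, a change in the share of cells with an open site and a change in how open it is in each cell cannot be told apart either.

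AP-1 is a family of dimeric transcription factors built from basic leucine zipper (bZIP) proteins. Jun proteins pair with one another or with Fos proteins, whereas Fos proteins need a Jun partner to bind DNA. Atf3 and Batf belong to related branches of the bZIP family and pair with Jun proteins. Several of the genes are immediate-early genes, which growth factors and stress switch on through MAP kinases, and AP-1 sites are a common feature of fibroblast enhancers.

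Sequences of the genome build of the files (mm9) show the elements inside the accessible regions of these genes. Of the AP-1 site, TGAGTCA on either strand, 8 examples are printed along the strand of each gene with the site in capitals. They comprise the promoter site of Fosl2 and 7 distal sites in regions that peaks of 6 or more libraries made up, and they are shown because they place the motif in regions that were open in most libraries. Fosl2 is chr5:32438190-32438270 (plus strand), Fosl1 upstream is chr19:5430013-5430093 (plus), Fosl1 intron is chr19:5448818-5448898 (plus), Atf3 is chr1:193013890-193013970 (minus), Fosb is chr7:19902312-19902392 (minus), Junb is chr8:87509613-87509693 (minus), Jund far is chr8:73203507-73203587 (plus) and Jund near is chr8:73206193-73206273 (plus).
Fosl2, -618 bp from the start: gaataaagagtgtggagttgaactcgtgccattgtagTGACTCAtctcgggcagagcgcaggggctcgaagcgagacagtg
Fosl1 upstream, -17653 bp from the start: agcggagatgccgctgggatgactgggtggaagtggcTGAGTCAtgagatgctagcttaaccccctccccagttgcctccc
Fosl1 intron, +1152 bp from the start: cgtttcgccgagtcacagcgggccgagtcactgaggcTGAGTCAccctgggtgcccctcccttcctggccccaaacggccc
Atf3, -6714 bp from the start: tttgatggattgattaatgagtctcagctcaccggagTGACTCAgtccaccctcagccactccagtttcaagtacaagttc
Fosb, -6961 bp from the start: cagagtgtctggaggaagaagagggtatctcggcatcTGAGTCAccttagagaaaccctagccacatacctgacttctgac
Junb, -7039 bp from the start: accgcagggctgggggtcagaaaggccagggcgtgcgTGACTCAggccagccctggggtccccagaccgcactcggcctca
Jund far, -18094 bp from the start: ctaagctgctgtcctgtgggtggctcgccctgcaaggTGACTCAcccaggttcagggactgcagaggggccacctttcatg
Jund near, -15408 bp from the start: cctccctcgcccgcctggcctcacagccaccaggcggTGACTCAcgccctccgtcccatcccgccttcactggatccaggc

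The CArG box is the site of serum response factor, which links MAP kinase signals to immediate-early genes, and its 5 examples in the regions of Fos, Fosb and Junb are printed because no match was found near the summits of the other 6 genes. Fos promoter is chr12:86814495-86814575 (plus strand), Fos distal is chr12:86827028-86827108 (plus), Fosb promoter is chr7:19895621-19895701 (minus), Junb upstream is chr8:87504022-87504102 (minus) and Junb downstream, past the end of the gene, is chr8:87500487-87500567 (minus). Capitals mark the box.
Fos promoter, -309 bp from the start: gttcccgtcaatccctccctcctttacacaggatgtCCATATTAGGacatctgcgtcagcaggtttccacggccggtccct
Fos distal, +12224 bp from the start: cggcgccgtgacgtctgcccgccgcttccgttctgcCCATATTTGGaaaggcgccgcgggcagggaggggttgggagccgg
Fosb promoter, -272 bp from the start: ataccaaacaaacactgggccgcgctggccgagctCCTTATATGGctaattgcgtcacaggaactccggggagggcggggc
Junb upstream, -1450 bp from the start: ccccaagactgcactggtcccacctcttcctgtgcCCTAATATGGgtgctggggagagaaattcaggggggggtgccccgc
Junb downstream, +2085 bp from the start: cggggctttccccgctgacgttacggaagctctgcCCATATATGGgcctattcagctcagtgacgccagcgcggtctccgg

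Accessibility is given as the pileup at a summit, the number of sequenced tags, extended to 200 bp, over the highest point of a peak, scaled to 1000000 tags of the library and called normalised tags. Peaks of all libraries that shared at least 1 bp were merged into 210151 regions. A promoter was the 3 kb upstream of any annotated start, and its value in a library was the highest summit of the regions that touched it. The depth was least in D9T-, with 13213117 tags, and greatest at D0, with 31714845. The weakest peak that passed the caller had a pileup between 0.331 (D3) and 0.530 (D9T-) normalised tags. The whole set of promoters differed between libraries: the median over the 10298 promoters called in all 9 libraries was 0.946 normalised tags at D0, 3.74 at D6T-, 1.44 in D9T- and 1.17 in iPSCs. A ratio is therefore set beside the median ratio of all promoters. Intervals are exact 95% Poisson intervals for a pileup or the matching binomial intervals for a ratio, and they cover counting error only. With 1 library per condition there is no replicate error, and no difference was tested. Of 10 fibroblast markers, promoter peaks were called for 7 at D0, 9 at D3, 8 at D6T-, 4 in D9T-, 7 in D12S+, 8 in D16S+ and 6 in iPSCs, so these calls did not separate the fibroblast end of the course. They were called for 3 of 10 pluripotency markers at D0, for 9 in D12S+ and for 10 in iPSCs, with Nanog, Zfp42 and Dppa5a not called before D12S+. Of 5 macrophage markers 1 to 3 were called in each library, and of 5 endothelial markers 4 at D0 and 0 in D9T-.

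Of the 9 genes, 8 had a promoter region in at least 1 library, against 16714 of all 22367 protein-coding genes. Batf, a subunit known from lymphocytes that lacks a transactivation domain, was the exception: it lies at chr12:87027619-87050037 (mm9, plus strand), a region beginning 60 bp inside the gene had a peak in iPSCs alone, with 0.489 normalised tags, and its upstream 3 kb had none. Fosl1 had a promoter peak in 8 libraries and not in D9T-, the shallowest library, and the other 7 genes had one in all 9.

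Among the Jun genes, Jun (chr4:94715725-94718913, minus strand) encodes the founding subunit and had the highest promoter of the 8 in all 9 libraries. The Jun promoter held 2.62 normalised tags at D0, 5.06 at D3, 7.53 at D6T-, 3.48 in D9T-, 6.02 in D12S+, 6.85 in D16S+, 2.63 in iPSCs, 3.54 in D6 siH3.3 and 4.27 in D6 siNT. It stood above 92% of all called promoters in every library, with a percentile of 99.3 at D0 and a lowest percentile of 92.8 at D6T-, where it was 1 tag above Atf3. Its single region spanned 3693 bp from -1850 to +1842 bp of the start. It reached from upstream into the transcribed part of the short gene, which has no introns, and stopped before the end of the gene.

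Junb (chr8:87500811-87502617, minus strand), a subunit that often opposes Jun in growth control, held 1.14 normalised tags at D0, 2.18 at D3, 4.07 at D6T-, 1.51 in D9T-, 2.56 in D12S+, 2.69 in D16S+, 1.35 in iPSCs, 0.964 in D6 siH3.3 and 1.19 in D6 siNT. Jund (chr8:73221638-73224515, plus strand), the most uniformly expressed Jun gene, held 1.55 at D0, 2.98 at D3, 4.77 at D6T-, 2.12 in D9T-, 2.95 in D12S+, 3.07 in D16S+, 1.62 in iPSCs, 1.93 in D6 siH3.3 and 1.70 in D6 siNT. Both genes followed the common shape, low at D0, highest at D6T- and low again in iPSCs. For Jund the highest point lay 919 to 1241 bp inside the gene, next to a second annotated start, in all 9 libraries. For Junb it lay past the end of the gene in D6T-, D9T-, D12S+, D16S+ and iPSCs, near the annotated start in D3 and D6 siNT, and upstream of it in D0 (-1202 bp) and D6 siH3.3 (-1109 bp), so that its values do not all come from one place. The CArG box of Junb downstream lay 34 bp from the D6T- summit.

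Among the Fos genes, the promoter of Fos (chr12:86814840-86818223, plus strand), the classic immediate-early gene, held 0.757 normalised tags at D0, 1.65 at D3, 3.46 at D6T-, 1.29 in D9T-, 1.99 in D12S+, 2.88 in D16S+, 0.941 in iPSCs, 1.23 in D6 siH3.3 and 1.61 in D6 siNT. The promoter of Fosb (chr7:19888070-19895394, minus strand), a close relative of Fos, held 0.757 at D0, 1.59 at D3, 1.68 at D6T-, 0.606 in D9T-, 2.27 in D12S+, 2.88 in D16S+, 1.17 in iPSCs, 1.34 in D6 siH3.3 and 0.918 in D6 siNT. The Fos value came from the region over the start except in D9T- and D12S+, where its summit lay at -1590 and -1633 bp. Fos had its highest value at D6T- and Fosb at D16S+. Fosb moved from the 2.13 percentile of called promoters in D9T- to 75.5 in D16S+, and in D9T- it rested on a pileup of 8 tags.

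Fosl2 (chr5:32438845-32460204, plus strand), which encodes the subunit Fra-2, held 1.48 normalised tags at D0, 3.08 at D3, 5.52 at D6T-, 2.04 in D9T-, 2.27 in D12S+, 2.31 in D16S+, 1.39 in iPSCs, 1.39 in D6 siH3.3 and 2.30 in D6 siNT. Fosl1 (chr19:5447703-5455945, plus strand), which encodes Fra-1, held 0.914 at D0, 1.03 at D3, 2.43 at D6T-, 0.908 in D12S+, 0.614 in D16S+, 0.752 in iPSCs, 0.643 in D6 siH3.3 and 0.826 in D6 siNT. Both Fra genes stood lower among called promoters in D16S+ than at D0, with percentiles of 88.1 and 63.6 for Fosl2 and of 57.6 and 4.64 for Fosl1.

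The Fosl1 values join 2 separate regions. The upstream one, from -2852 to -2233 bp of the start, was called at D0 (0.914), D3 (0.959), D6T- (2.43) and D6 siH3.3 (0.589) and in no other library. The region over the start was not called at D0 or in D9T- and held 1.03 at D3, 2.24 at D6T- and 0.614 to 0.908 in D12S+, D16S+ and iPSCs. From D0 to D16S+ the direction thus differed by region, with a D16S+ over D0 ratio of at most 0.465 for the upstream region and at least 1.77 for the start.

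Atf3 (chr1:192994175-193007219, minus strand), a stress-induced subunit, held 1.70 normalised tags at D0, 4.43 at D3, 7.48 at D6T-, 2.73 in D9T-, 4.54 in D12S+, 3.02 in D16S+, 1.05 in iPSCs, 3.48 in D6 siH3.3 and 3.49 in D6 siNT. It stood beside Jun at the top of the 8 genes at D6T- and lay in the middle of all called promoters in iPSCs, at the 53.7 percentile after 93.1 at D0. In the order of levels at D0, which ran Jun, Atf3, Jund, Fosl2, Junb, Fosl1 and then Fos level with Fosb, the counting intervals of every pair of neighbours overlapped. In D16S+ Jun stood clear of the next gene, Jund, and Fosl1 stood clear below Fosl2, while the 6 genes between them overlapped with their neighbours.

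**Figure D1:**
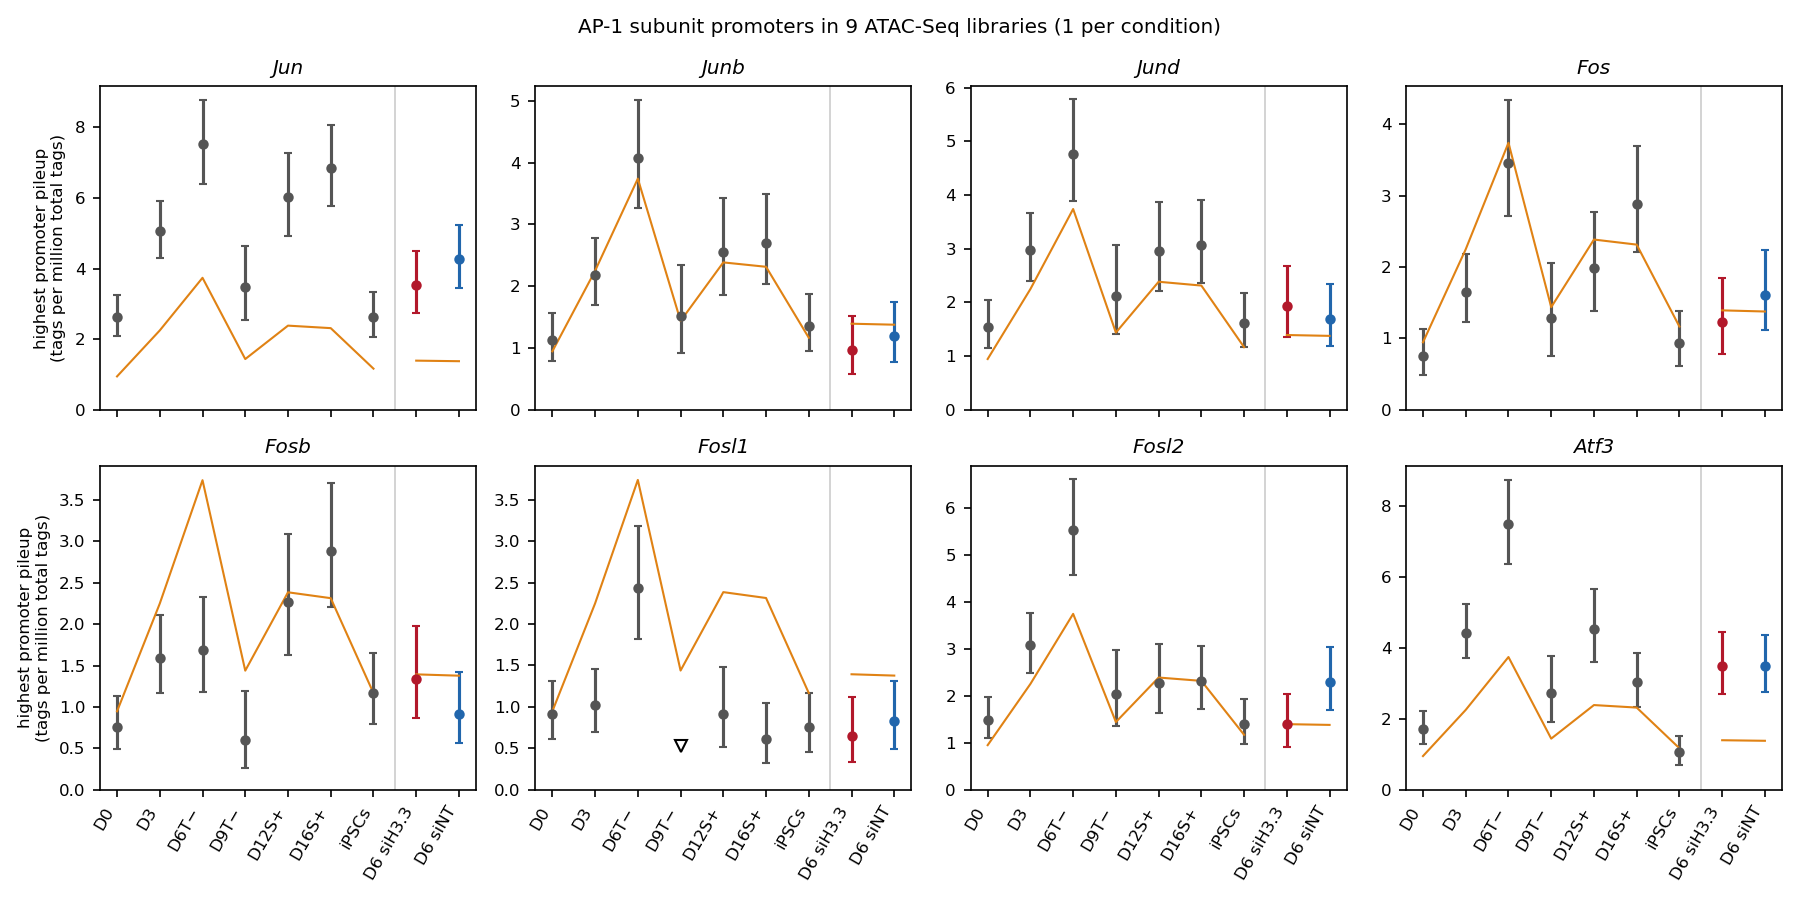
Highest promoter pileup in normalised tags (y axis) of the 8 AP-1 subunit genes with a promoter region, by library (x axis), with exact 95% Poisson intervals as bars; the orange line is the median of promoters called in all 9 libraries and an open triangle marks a library with no call, drawn at its lowest called pileup. Jun lay above the line in every library, and Fosl1 had no call in D9T-.

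The 8 promoters followed the shift of all promoters up to D6T-. From D0 to D3, 4 of 8 (Fos, Fosb, Fosl2 and Atf3) were at least 2-fold higher, against 56.1% of all promoters, and the median log2 ratio was 1.00 against 1.16. The Junb and Fosl1 values came from different regions at D0 and D3. Their regions over the start alone were past 2-fold higher, at 2.56 (1.62 to 4.18) for Junb and at least 2.96 for Fosl1. Their other promoter regions gave 1.72 and 0.909 for Junb and 1.05 for Fosl1. From D0 to D6T-, 8 of 8 were at least 2-fold higher, against 84.2%, and the ratios ran from 2.22 for Fosb to 4.57 for Fos with a median log2 ratio of 1.73 against 1.91. These counts describe the common scale of the libraries: with each library divided by its promoter median, 0 of 8 were 2-fold higher in either comparison, and over all promoters 1.47% were higher and 15.7% lower at D6T-. From D6T- to D12S+, 2 of 8 (Fosl1 and Fosl2) were at least 2-fold lower, against 19%. The Fos value came from different regions in these libraries. Its region over the start alone was past 2-fold lower, with a D12S+ over D6T- ratio of 0.443 (0.274 to 0.697).

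Set against the median ratio of all promoters, few ratios stood apart beyond counting error. At D3 over D0, 0 of 8 genes had an interval above the median, against 10.8% of all promoters, and 1 of 8 below it, against 10%. That gene was Fosl1, with a ratio of 1.12 (0.654 to 1.93) against a median of 2.23. This ratio set its upstream region at D0 against its start region at D3. The upstream region alone gave 1.05 (0.605 to 1.82), below the median. The start region, not called at D0, gave at least 2.96, above it. At D12S+ over D6T-, 1 of 8 lay above, against 7.68%, and 1 of 8 below, against 8.62%. Fosb had a ratio of 1.35 (0.839 to 2.18) and Fosl2 one of 0.412 (0.280 to 0.594), on either side of a median of 0.657. Both counts are near the background. Against the other Thy-1-negative library, D9T-, the Fosl2 ratio of D12S+ was 1.11, with an interval that included the median.

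At D16S+ over D0, 2 of 8 genes lay above the median, against 12.7%, and 1 of 8 below it, against 10.4%. Fos and Fosb both went from 24 to 61 tags, a ratio of 3.81 (2.34 to 6.39) where the median was 2.33. For Fos this was the region over the start, and its other promoter region, from -1975 to -900 bp, gave 2.64 (1.51 to 4.75), an interval that included the median. Fosl1 had a ratio of 0.672 (0.320 to 1.33) between its different regions, lower than in all but 0.849% of promoters. At iPSCs over D16S+, 1 of 8 lay above, against 5.34%, and 3 of 8 below, against 9.22%. The 3 below were Fos at 0.327 (0.196 to 0.528), Atf3 at 0.349 (0.215 to 0.551) and Jun at 0.385 (0.285 to 0.515), against a median of 0.560. The gene above was Fosl1, with 20 tags after 13 and a ratio of 1.23 (0.580 to 2.68).

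At iPSCs over D0, 0 of 8 genes were at least 2-fold lower, against 2.13%, 0 of 8 had an interval above the median ratio, against 6.81%, and 1 of 8 one below it, against 6.51%. Atf3 was the gene below, with 28 tags after 54 and a ratio of 0.619 (0.377 to 0.994) against a median of 1.27. Its ratio was lower than in all but 2.81% of promoters. The median log2 ratio of the 8 genes was 0.04, against 0.34 for all promoters. Over the 12 pairs of libraries compared, 15 of 94 ratios of these genes lay outside the median, 6 above and 9 below, and 13.8% of all promoter ratios did, so the number that stood apart was near the background.

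**Figure D2:**
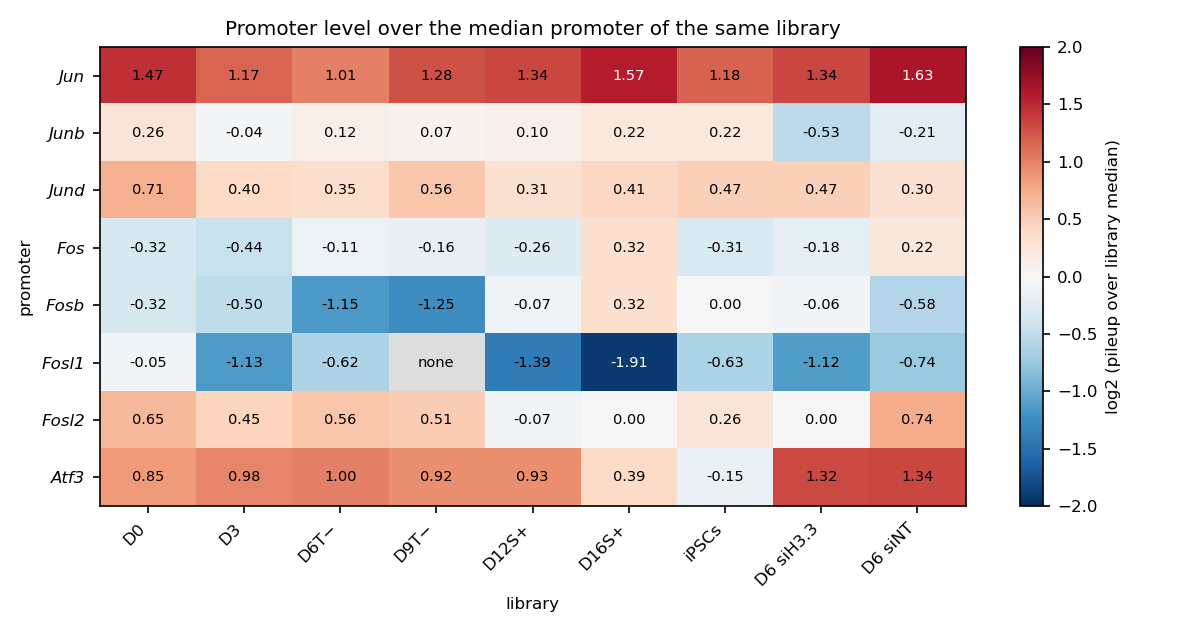
Heat map of the log2 promoter pileup of each gene (rows) over the median of promoters called in all 9 libraries, by library (columns), with "none" for no call. Jun and Atf3 are the highest of the genes at D6T-, and Fosl1 lies below the median in the 8 libraries where it was called.

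Under siRNA, 0 of 8 promoters were at least 2-fold lower in D6 siH3.3 than in D6 siNT, against 0.567% of all promoters, and 0 of 8 at least 2-fold higher, against 0.687%. None of 8 had a counting interval above the median ratio, against 1.16%, and 1 of 8 had one below it, against 1.22%. That gene was Fosl2, with 26 tags in D6 siH3.3 and 50 in D6 siNT and a ratio of 0.607 (0.363 to 0.994) where the median was 1.04. Only 2.16% of promoters had a lower ratio. Both Fosl2 values came from the region over the start, from -1552 to +375 bp. Its promoter region from -3541 to -2286 bp went the other way. That region was called in D6 siH3.3 (0.803 normalised tags) and not in D6 siNT, a ratio of at least 1.945. A further region, from -1982 to -1783 bp, was called in D6 siNT alone. The upper bound of the Fosl2 interval lay just under 1, and 1 library stood behind each value.

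The other 7 ratios of D6 siH3.3 over D6 siNT ran from 0.767 for Fos to 1.46 for Fosb. Atf3 had a ratio of 0.998 (0.705 to 1.41) and Jun one of 0.828 (0.595 to 1.15), so a difference of 2-fold lay outside both counting intervals. For Fosl1 the upstream region was called in D6 siH3.3 and not in D6 siNT, which put its ratio at 1.43 or more, while the start region gave 0.778. The median log2 ratio of the 8 genes was -0.29, against 0.06 for all promoters, and 6 of 8 lay below the median of all promoters.

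**Figure D3:**
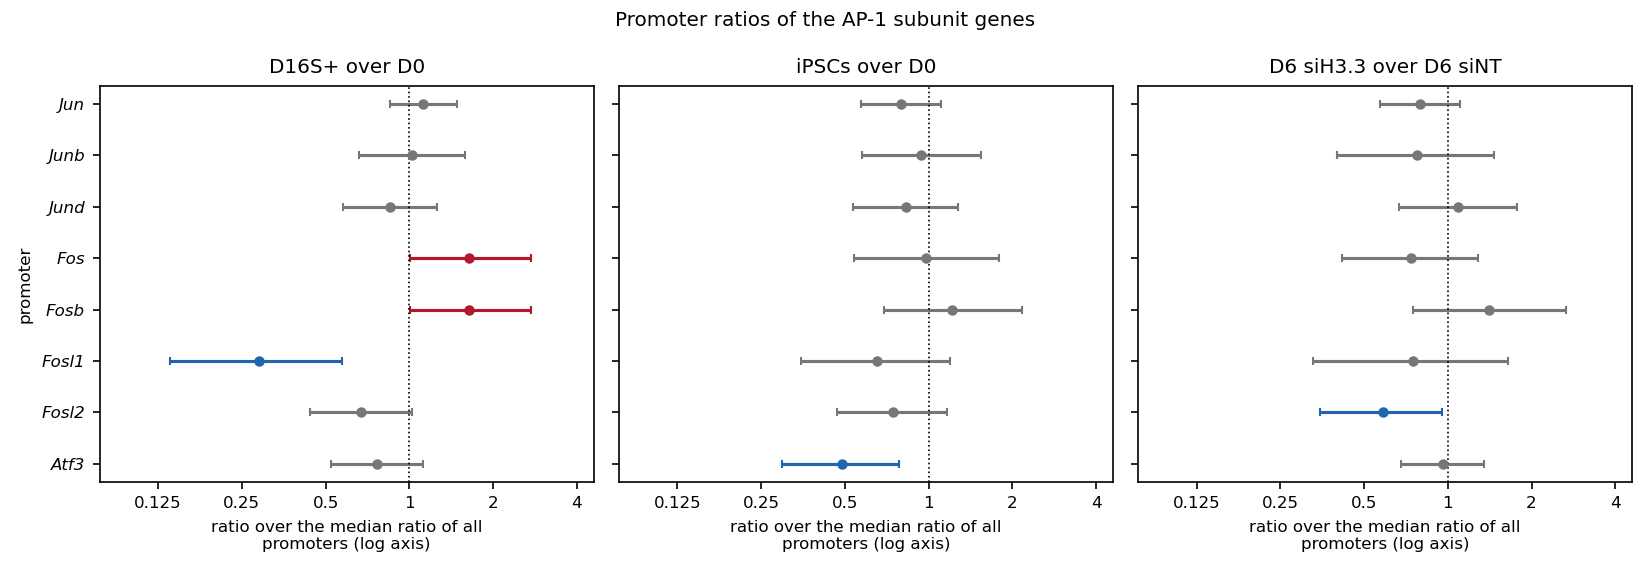
Ratios of normalised promoter tags for D16S+ over D0, iPSCs over D0 and D6 siH3.3 over D6 siNT (panels), each divided by the median ratio of all promoters (log axis), with 95% counting intervals; red intervals lie above the median and blue ones below. Fos and Fosb are above and Fosl1 below in D16S+ over D0, Atf3 is below in iPSCs over D0 and Fosl2 below in the siRNA pair.

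Around the 9 genes, from 20 kb upstream of the start to 20 kb past the end, lay 115 merged regions: 20 in the promoters described above, 26 in promoters of neighbouring genes and 69 distal ones outside every promoter. Distal regions numbered 14 around Jund, 11 around Fosb, 10 around Fosl1, 8 each around Fos and Fosl2, 6 around Junb, 5 around Jun, 4 around Atf3 and 3 around Batf. Of the 69, 29 (42.0%) were called at D0, against 34.1% of the distal regions of all genes. The counts were 40 at D3 (58.0% against 46.2%), 39 at D6T- (56.5% against 58.0%) and 16 in D9T- (23.2% against 11.5%). Later they were 22 in D12S+ (31.9% against 20.1%), 21 in D16S+ (30.4% against 15.9%) and 24 in iPSCs (34.8% against 22.8%). The share was above that of all genes in 6 of these 7 libraries, D6T- being the exception. The number was lowest in the shallowest library, D9T-, and the part of depth in these counts was not tested.

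A larger share of the distal regions of AP-1 genes than of distal regions in general was called at both ends of the time course. Of the 29 called at D0, 14 (48.3%) were not called in iPSCs, against 83.3% of the distal regions of all genes. In the other direction, 9 of 24 iPSC regions (37.5%) were absent at D0, against 75.1%. The called regions had a median height of 0.536 normalised tags at D0 for AP-1 genes and for all genes. At D3 the AP-1 regions were slightly the lower, with 0.513 against 0.529. From D6T- on they were the higher, with 1.08 against 0.795 at D6T- and 1.02 against 0.908 in D9T-. The later values were 0.937 against 0.738 in D12S+, 0.897 against 0.709 in D16S+ and 0.602 against 0.564 in iPSCs. In the siRNA pair they were 0.777 against 0.696 in D6 siH3.3 and 0.666 against 0.689 in D6 siNT. The part of height in the shared calls was not tested. Of the 69, 7 (10.1%) were called in all 9 libraries, against 1.65% over all genes, and 30 (43.5%) in a single library, against 50.5%. The 7 were around Fosb (3), Fos (2), Junb (1) and Jund (1). Members of one window share a locus, and the difference was not tested.

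The highest distal region of the set lay at -18460 bp from the start of Fos and held 1.77 normalised tags at D0, 3.71 at D3, 7.62 at D6T-, 2.95 in D9T-, 4.77 in D12S+, 4.49 in D16S+, 2.14 in iPSCs, 1.98 in D6 siH3.3 and 2.75 in D6 siNT. It was higher than the Fos promoter itself in every library. A second Fos region, 12189 bp downstream of the start and holding the CArG box of Fos distal, held 0.820 at D0, 2.51 at D3, 5.42 at D6T-, 1.67 in D9T-, 3.86 in D12S+, 3.78 in D16S+, 1.02 in iPSCs, 1.82 in D6 siH3.3 and 1.52 in D6 siNT. Neither region held TGAGTCA within 150 bp of its highest summit.

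The highest Fosb region, at -10081 bp, held 0.820 normalised tags at D0, 2.85 at D3, 5.42 at D6T-, 1.44 in D9T-, 3.69 in D12S+, 2.83 in D16S+, 1.35 in iPSCs, 1.88 in D6 siH3.3 and 1.74 in D6 siNT. Its D16S+ over D0 ratio was 3.46 (2.15 to 5.71), where the median of distal regions called in both was 1.28. The Fos region at -18460 bp had a ratio of 2.54 (1.81 to 3.60) in the same comparison. These regions were picked as the highest of each window, so their ratios are a description.

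The Fosl1 region with the AP-1 site of Fosl1 upstream held 0.851 normalised tags at D0, 1.32 at D3, 3.04 at D6T-, 0.833 in D9T-, 0.681 in D12S+, 0.803 in D6 siH3.3 and 0.597 in D6 siNT and was not called in D16S+ or iPSCs. The Fosl1 intron region held 0.378 at D0, 1.16 at D3, 1.92 at D6T-, 0.530 in D9T-, 0.643 in D6 siH3.3 and 0.551 in D6 siNT and was not called from D12S+ on. A region at +16322 bp had the opposite pattern, with 0.709 in D16S+ and 0.715 in iPSCs and no call elsewhere. The other 7 Fosl1 distal regions were called in 1 or 2 libraries each.

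The Jund region with the AP-1 site of Jund near held 1.20 normalised tags at D0, 1.69 at D3, 4.16 at D6T-, 1.82 in D9T-, 1.59 in D12S+, 0.897 in D16S+, 0.602 in iPSCs, 1.07 in D6 siH3.3 and 1.24 in D6 siNT. The Junb region with the AP-1 site of Junb held 0.473 at D0, 1.42 at D3, 1.59 at D6T-, 0.984 in D9T-, 1.36 in D12S+, 1.94 in D16S+, 0.677 in iPSCs, 0.643 in D6 siH3.3 and 0.505 in D6 siNT. The Jund region was thus highest at D6T- and the Junb region in D16S+. Jun differed from both, because none of its 5 distal regions was called in D9T-, D12S+, D16S+, iPSCs or either siRNA library. Its highest one, 19445 bp past the start, held 0.694 at D0, 0.860 at D3 and 1.40 at D6T-. Batf had a distal region 19024 bp inside the gene in 8 libraries, at 0.602 to 1.73, and not in D6 siNT.

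**Figure D4:**
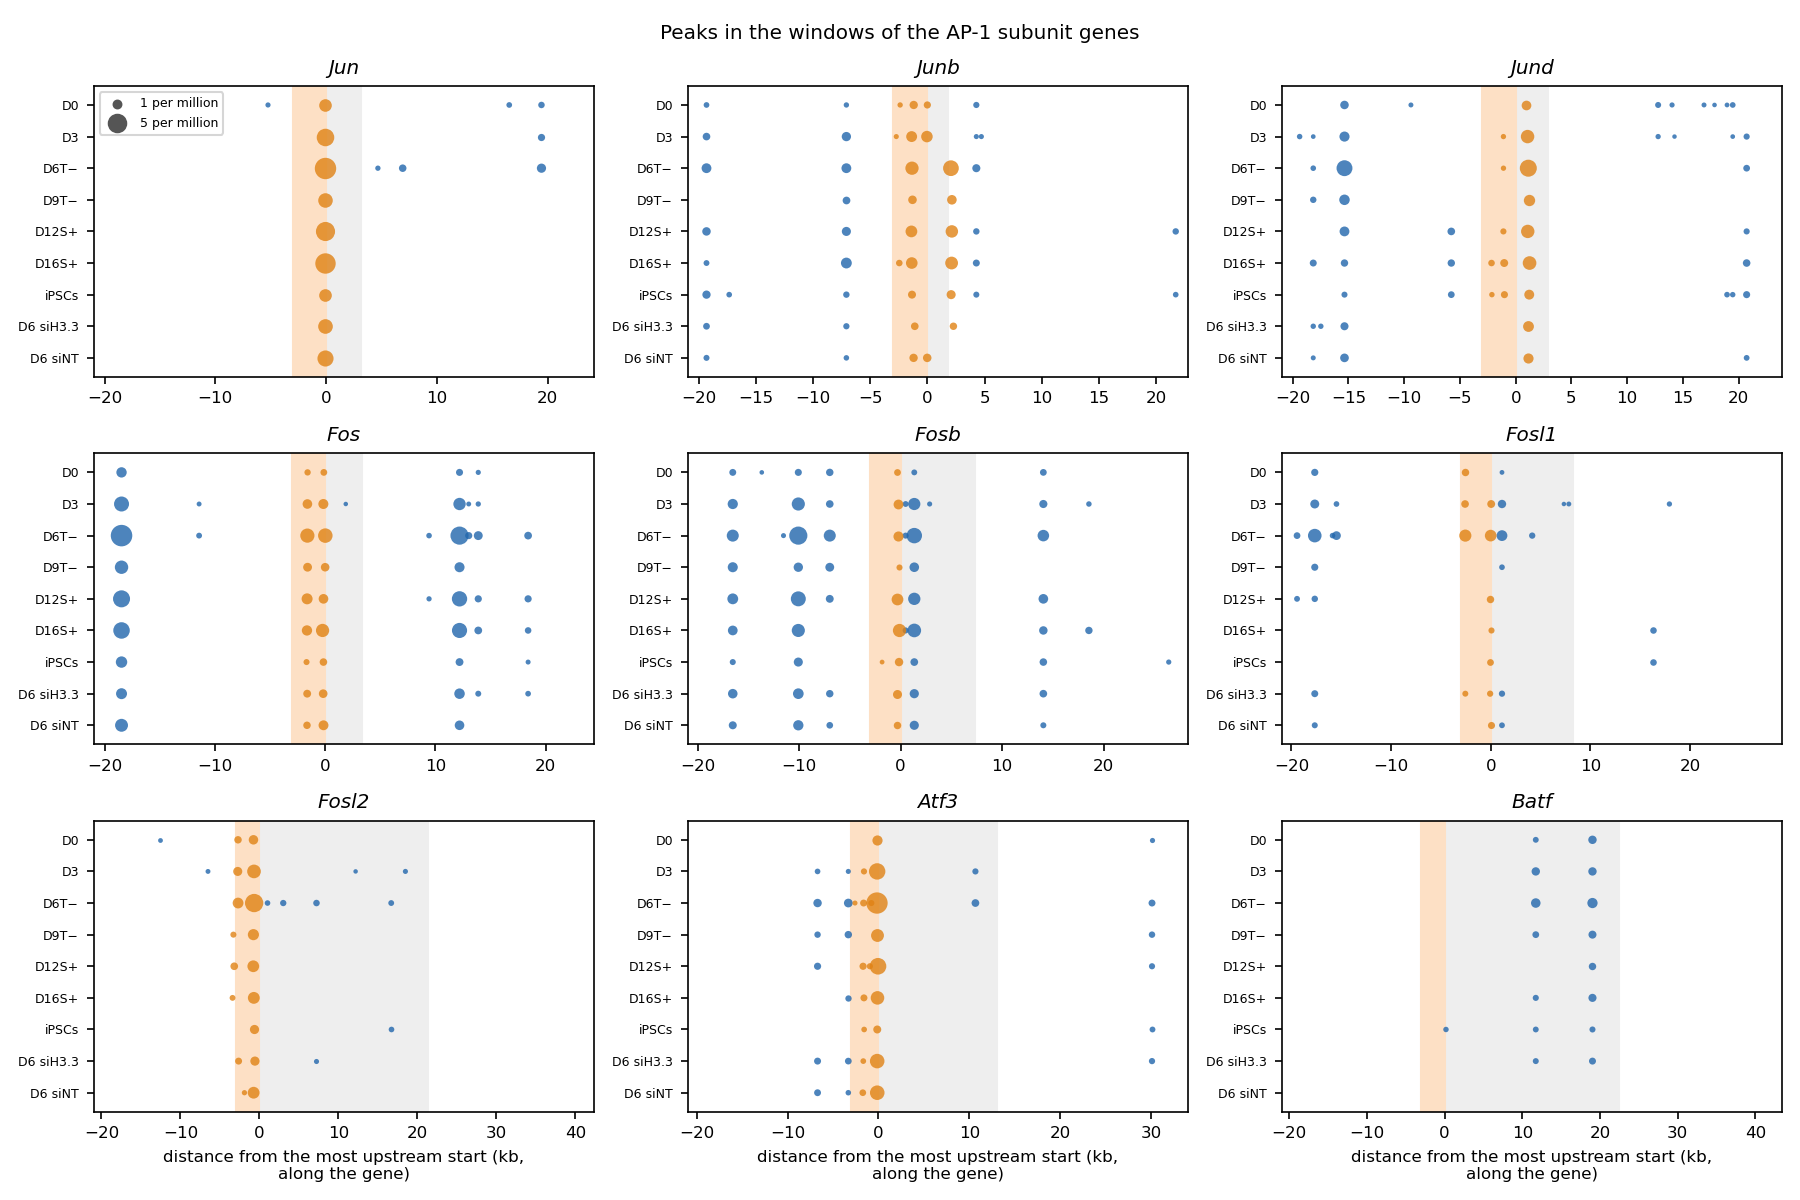
Peaks in the window of each gene (panels) by distance of the summit from the most upstream start in kb (x axis) and by library (rows); circle area is normalised tags, orange marks promoter regions of the gene and blue distal regions, and shading marks the promoter and the gene body. Jun has distal peaks at D0, D3 and D6T- alone, and Fos has a large peak at -18460 bp in every library.

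In the siRNA pair, 1 of 16 distal regions called in D6 siNT (6.25%) was not called in D6 siH3.3, against 29.1% over all genes. It lay around Jund and held 0.551 normalised tags. In the other direction, 7 of 22 (31.8%) were called in D6 siH3.3 and not in D6 siNT, against 30.6%. The 7 lay around Fos (2), Batf (2), Atf3, Fosl2 and Jund and held 0.429 to 0.803 normalised tags, against a lowest called pileup of 0.413 in D6 siNT.

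The AP-1 site was not more frequent in the distal regions of AP-1 genes than in those of all genes. TGAGTCA on either strand lay within 150 bp of the highest summit in 13 of 69 (18.8%, exact binomial interval 10.4 to 30.1), against 22.7% of 119515 distal regions of all genes. Over all genes the share was lower late in the course, from 28.9% of regions called at D0 and 33.8% at D6T- to 9.76% in D16S+ and 9.12% in iPSCs. Around AP-1 genes it was 8 of 29 (27.6%) at D0, 9 of 39 (23.1%) at D6T-, 3 of 21 (14.3%) in D16S+ and 2 of 24 (8.33%) in iPSCs. It was above the share of all genes in D9T- (7 of 16, 43.8% against 36.7%), D6 siNT (7 of 16, 43.8% against 39.1%) and D16S+, and below it in the other 6 libraries. Of 34 regions called at D0, D3 or D6T- and in none of D12S+, D16S+ and iPSCs, 7 (20.6%) held the site, against 26.8% over all genes, and of 6 regions with the opposite pattern 0 did, against 5.03%.

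**Figure D5:**
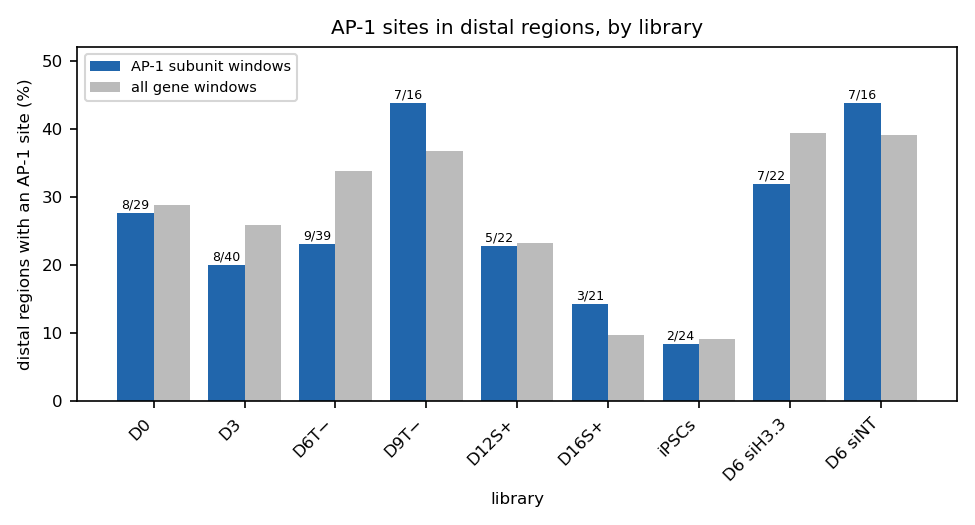
Percent of distal regions called in each library (x axis) with TGAGTCA on either strand within 150 bp of the summit (y axis), for AP-1 subunit genes and for all protein-coding genes, with the numbers of regions above the bars. Both sets of bars are lower in D16S+ and iPSCs than at D0.

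In promoter regions, TGAGTCA was found in 2 of 20 (10.0%), the Fosl2 one printed above and one of Junb, against 11.5% of 31363. The CArG box, searched by name on both strands after the promoter values were known, was found in 3 of 20 (15.0%), the Fosb one and both of Junb, against 1.14%. The box of Fos promoter, at -309 bp, lay more than 150 bp from the highest summit, at +19 bp in D6T-, and so outside this count. It lay inside the accessible region that spanned the start, from -702 to +1675 bp. Across libraries the summit of that region ran from -230 bp in D16S+ to +19 bp in D6T-, and the D16S+ summit lay within 150 bp of the box. In the 500 bp upstream of the start, 2 of 9 genes (Fos and Fosb) held a CArG box, against 2.71% of 22215 genes, and 0 of 9 held TGAGTCA, against 7.45%. The cyclic AMP response element TGACGTCA, the preferred site of Jun and Atf dimers, was in 0 of 9 in those 500 bp, against 2.21%. In promoter regions it was found in 1 of 20 (5.0%), 996 bp inside Jund, against 1.7%. In distal regions it was found in 1 of 69 (1.45%), around Jun, against 0.48%. A match is a description of letters and shows no binding.

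Over the 7 time-course libraries, the genes whose promoter profile was most like that of Jun were Oxa1l and Gtf2f1, with root mean square differences of 0.06 and 0.07 on the log2 scale after each profile was centred. The nearest were Apip and Pdhx for Fos (0.05 each), Lamp1 (0.07) and Med13 (0.18) for Fosb, Pgm3 and Rwdd2a for Junb (0.06 each), and Polr3e (0.06) and Ran (0.09) for Atf3. Fosl2 and Jund each shared their region with an overlapping gene, Gm10463 and Gm11175, and the next nearest were Ddx1 and 5930434B04Rik (0.06 each). Each nearest gene was picked out of 10627, and how close the nearest genes of other promoters lie was not tested. Within the family, Junb and Jund were the closest pair, at 0.12, less than all but 0.96% of genes differ from Junb. Jun and Junb differed by 0.15, less than all but 1.59% of genes differ from Jun. Fosb and Atf3 were the most distant pair, at 0.85.

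Beside the 84.2% of all promoters, 14 of 14 measured bZIP partners (15 listed) were at least 2-fold higher at D6T- than at D0, with ratios from 2.22 for Batf2 and 2.77 for Maff to 5.96 for the repressor Bach1. Of the listed MAP kinase pathway genes, 16 of 17 were. The 17 ratios ran from 1.79 for the kinase Map3k1 and 2.13 for Mapk3 to 4.82 for the immediate-early gene Egr1 and 6.56 for Srf, which encodes serum response factor. Of AP-1 targets (15 listed), 12 of 14 measured were, from 1.33 for the collagenase gene Mmp13 and 1.91 for the cytokine gene Lif to 4.92 for the adhesion receptor gene Cd44 and at least 5.53 for the protease gene Plau. The median log2 ratios, over genes called in both libraries, were 2.07, 1.91 and 1.57, against 1.91 for all promoters and 1.73 for the AP-1 genes. The median lower and upper counting limits of the 8 AP-1 genes, 1.20 and 2.28, took in all of these. The order of the medians was not tested.

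In iPSCs over D0, 1 of 14 bZIP partners (Atf2, at 2.31) and 1 of 17 MAP kinase pathway genes (Srf, at 2.66) were at least 2-fold higher. So were 2 of 14 AP-1 targets (Mmp9, at 2.19, and Plau, at 2.17 or more), against 14.35% of all promoters. The next highest were Batf3, at 1.84 or more, and Map2k2, at 1.64. The lowest were Creb1 (0.620) and Maf (0.746) among partners and Map2k7 (0.688) among MAP kinase pathway genes, where Mapk8 and Elk1 followed at 0.699 each. Of the 3 lists only the targets had genes at least 2-fold lower, 2 of 14 against 2.13% of all promoters. They were Cd44 at 0.426 or less and the cytokine gene Il6 at 0.373 or less. In D6 siH3.3 over D6 siNT, 0 of 14, 0 of 17 and 0 of 12 measured genes of these lists were past 2-fold in either direction. Of all promoters 0.567% were lower and 0.687% higher, so these counts were near the background.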

How the data were processed

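Each ATAC-Seq library came from 1 sample, and the members and lists were chosen with earlier results of these data known. The authors mapped 51 bp reads to mm9 with STAR, removed duplicates with Picard and mitochondrial reads, and called peaks per library with MACS2 2.1.0.20151222 at a q-value cutoff of 0.05 without a control. The versions of STAR and Picard are not given in the sources used here. The deposited files hold the pileup signal at each summit, not scaled for depth, with -log10 p and -log10 q values and a fold enrichment ratio.

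The pileup was scaled to 1000000 total tags (normalised tags), which are given per the file headers. Uncalled promoters were set to the lowest called pileup of the library, which makes a ratio a bound. Genes were those of GENCODE on mm9, and the named genes were all 9 members, for each promoter called in all 7 time-course libraries its 2 nearest profiles, and the 2 highest and 2 lowest ratios of each list at D6T- and in iPSCs over D0. One gene that this rule names is not reported here. Counting intervals are exact at 95%, and the scripts were tested on simulated data. Alternatives were scaling by the promoter median, the fold enrichment, other promoter and window widths, a -log10 q of at least 5 and 50% coverage of a region. Python 3.11.15, pandas 2.3.3 and scipy 1.17.1 were used.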

Additional observations from a re-analysis of the deposited data

How the results depend on the processing

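Every value rests on 1 library per condition, so no replicate could be left out, and depth (13213117 to 31714845 tags) limits which weak regions were called. No paired analysis was possible because each condition had 1 library. With libraries scaled by their promoter median, the counts of genes past 2-fold were 0 at D3 over D0, 0 at D6T- over D0 and 0 at D12S+ over D6T-, and the median log2 ratios turned to -0.25 (D3 over D0), -0.25 (D6T- over D0) and -0.26 (iPSCs over D0). Against the all-promoter median, which this scaling sets near 0, the median of the 8 genes lay below in the main values too. The iPSCs over D0 median, 0.04, also turned to -0.02 with the fold enrichment and to -0.04 with summits inside the promoter alone, an alternative chosen after seeing the data. Distal regions called at D0 and not in iPSCs numbered 5 with 10 kb flanks, 35 with 50 kb flanks and 8 at a -log10 q of at least 5. The distal regions themselves, called in any library, numbered 38, 146 and 39 under these settings, against 69 in the main values. Regions called in D6 siNT and not in D6 siH3.3 numbered 0, 6 and 0 under the same settings and 4 where a peak had to cover 50% of a region. Those in D6 siH3.3 and not in D6 siNT numbered 3 with 10 kb flanks. The matching shares over all genes are not given here. These counts alone therefore do not show whether the differences from all genes held. The other 65 comparisons of a summary value stayed within their limits, as did 317 of 321 single-gene ratios. The 4 that moved were of Jund, whose ratio divided by the median ratio of all promoters was 2.03 (D12S+ over D6T-) and 1.43 (iPSCs over D16S+) with the most upstream start alone and 0.290 (D16S+ over D0) and 2.81 (iPSCs over D16S+) with summits inside the promoter alone.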
